A study of Saccharomyces cerevisiae with 4 samples.

Results

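The 60 genes described here encode 30 proteins of the large (60S) subunit of the cytoplasmic ribosome of Saccharomyces cerevisiae, each from an A copy and a B copy. They were taken as every A/B pair of RPL genes, from RPL1 to RPL43, with neither copy on chromosome XI, and were found by ORF name among the 6210 probes of the array. A probe was present for 59 of the 60, the exception being RPL15B (YMR121C), and 58 gave a value on all 4 arrays. RPL43A was read on 2 arrays, so 29 pairs could be compared in all and 28 of them on every array.

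Yeast kept many ribosomal protein genes in duplicate after an ancient duplication of its genome, and both copies of a pair encode the same or nearly the same protein. The copies lie at separate loci with their own promoters, and many carry an intron. All of them are transcribed by RNA polymerase II (RNAP II), mainly under Rap1 with Fhl1 and Ifh1, and ribosomal protein genes as a class are known for moving together with growth rate and nutrient signals.

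The 5A mutant was compared with control cells carrying a WT CTD, both harvested in log phase from YPD medium. The CTD is the heptapeptide-repeat tail of Rpb1, the largest RNAP II subunit, and in the 5A mutant 5 alanine residues were inserted between its diheptads. The study described the 5A mutant as made by the plasmid shuffle in strain Z26. A LEU2-linked mutant gene was carried on a plasmid, and 5-FOA selected for loss of the URA3-linked WT gene. Control cells were described there as transformed with the WT CTD. On each of 4 spotted oligonucleotide arrays, cDNA from 1 replicate of the 5A mutant (Cy5) was hybridized against 1 of the control (Cy3).

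The deposited value is a normalized log ratio per probe and array, and 6022 to 6177 probes had a value on an array. Neither the base nor the direction is stated. The values were taken to be log2 of 5A mutant over control, because among the 5955 probes read on all 4 arrays the numbers at or beyond 2-fold in each direction are then those of the up- and down-regulated genes of the study. Array medians lay between -0.0102 and -0.0034, so each ratio is relative to the middle of its array, and a change of all mRNAs together would not be seen. Because 5A was Cy5 on all 4 arrays, dye and genotype cannot be told apart for a given probe. Whether the replicates were separate cultures is not stated, so p-values measure the spread between arrays, which may be technical. More RNA per cell and more cells that hold it cannot be told apart either. The probe of RPO21, which encodes Rpb1, gave a mean log2 ratio of -5.67 ± 0.75 (SD, n = 4), and whether it reads the altered region was not tested. URA3 gave -4.80 ± 0.38 (SD, n = 4), so its signal was higher in the control on these arrays, and whether the control still carried the URA3-linked plasmid was not tested. Over all probes arrays 1, 3 and 4 correlated at Pearson's r of 0.853 to 0.877, and array 2 with them at 0.666 to 0.691.

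More of the paired RPL transcripts were up- than down-regulated in the 5A mutant, most of them by less than 2-fold. Of 59 members, 25 were called higher in limma's test at an adjusted p under 0.05 (42.4%, against 19.8% of all 6157 probes tested and 16.8% of those not on chromosome XI), and their folds ran from 1.37 for RPL15A to 2.75 for RPL43B. Called lower were 2 members, RPL41B and RPL43A, against 20.7% of all probes and 21.7% of those not on chromosome XI. The other 32 did not pass, with adjusted p from 0.0567 for RPL31A to 0.908 for RPL4A in limma's test. Of these, 31 had a mean above 0 and 12 a mean log2 ratio of at least 0.5. At the 2-fold cut-off 5 members lay higher (5.75% of all probes did, and 3.87% of those not on chromosome XI) and 0 lower (8.66% of all probes). Those 5 were both copies of RPL1, both copies of RPL37, and RPL43B.

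The median of the members' mean log2 ratios was 0.55, with quartiles of 0.34 and 0.69, against -0.01 over all probes tested. In 56 of 59 members the mean was above 0, and the exceptions were RPL24B, RPL41B and RPL43A. Among the A copies 15 of 30 were called higher and the median was 0.57. Among the B copies 10 of 29 were called higher and the median was 0.51.

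The arrays did not read these genes alike. The median member stood at 0.67 on array 1, -0.12 on array 2, 0.92 on array 3 and 0.65 on array 4. Above 0 were 57 of 59 members on array 1, 55 of 58 on arrays 3 and 4 each, and 19 of 59 on array 2. Array 2 was therefore the low array of the set for nearly every gene: 54 of the 58 members with all values had their lowest there, while 36 had their highest on array 3, 13 on array 1 and 9 on array 4. Above 0 on arrays 1, 3 and 4 and below 0 on array 2 were 34 of 58 members, against 9.99% of all probes. Only 19 of 58 lay above 0 on all 4 arrays, and 26.8% of all probes did. The shift on array 2 was shared by the copies, since the A copies had a median of -0.09 there and the B copies -0.14.

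**Figure D1:**
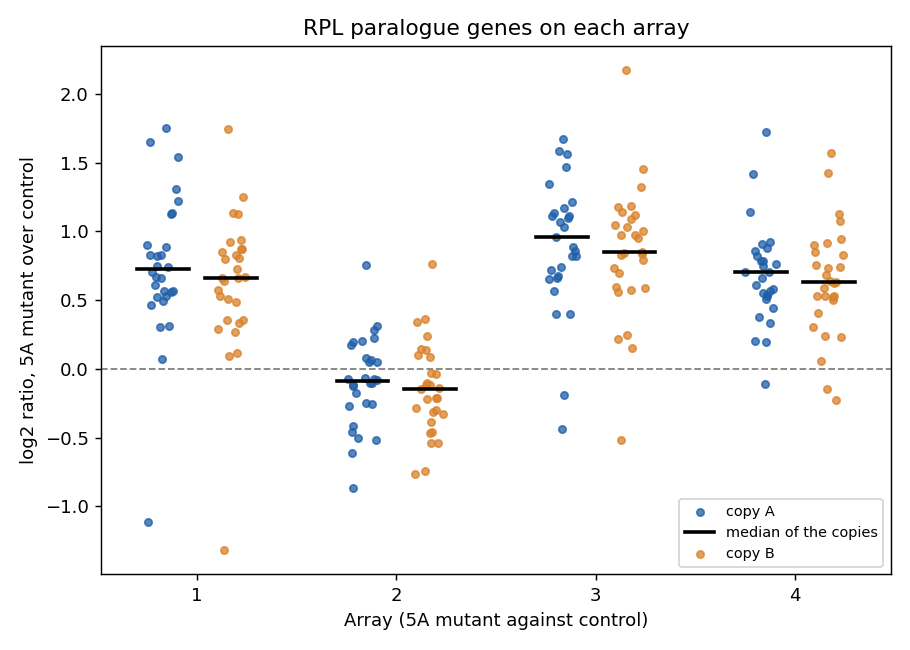
Log2 ratio, 5A mutant over control (y axis), of 58 members on arrays 1 to 4 (x axis), 1 point per gene with copy A in blue and copy B in orange, and black lines at the medians of the copies. The medians lie at 0.63 to 0.96 on arrays 1, 3 and 4 and at -0.09 and -0.14 on array 2.

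Although array 2 sat lower, it kept part of the order of the genes. Across the 58 members, which share array and probe set and are not independent, array 2 correlated with arrays 1, 3 and 4 at r = 0.537, 0.580 and 0.602, and those 3 arrays with each other at 0.768 to 0.780. The spread over all probes was also smallest on array 2, with an SD of 0.74 against 0.86, 0.97 and 0.89 on arrays 1, 3 and 4. What sets array 2 apart was not tested.

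The count of called genes depended on the arrays in the fit. Without array 2, 49 of 58 members were called higher in limma's test, against 25.2% of all probes, and all 25 called before were among them. RPL41B stayed called lower, and the 8 called in neither direction were RPL4A, RPL4B, RPL9B, RPL22B, RPL24B, RPL35A, RPL35B and RPL41A. Without array 1 or without array 3, 5 members were called higher, in each case RPL1A, RPL1B, RPL37A, RPL37B and RPL43B. Without array 4 those 5 were joined by RPL33A and RPL36A. The share of all probes called is not given here for the fits without array 1, 3 or 4. The lower counts in those fits therefore cannot be read as particular to these genes.

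The pairs are taken by role from here on, in groups set with the values known, which describe these genes and are not ranked. Those at the site where tRNA leaves the ribosome, RPL1 and RPL42, were called higher in all 4 copies (19.8% of all probes were). Their median log2 ratio was 1.00. Rpl1 forms the mobile L1 stalk that guides tRNA out of the ribosome. RPL1A (YPL220W) gave log2 ratios of 1.65, 0.76, 1.67 and 1.42 on arrays 1 to 4, a mean of 1.37 ± 0.43 (SD, n = 4, with a limma adjusted p of 0.00195). RPL1B (YGL135W) gave 1.12, 0.77, 1.46 and 1.43, a mean of 1.19 ± 0.32 (SD, n = 4, with a limma adjusted p of 0.00195). Array 2 was again the lowest for both copies, but at 0.76 and 0.77 it stood far above the median member there, and the copies lay within 0.01 of each other on arrays 2 and 4. Rpl42 lies at the exit site itself, where cycloheximide binds. RPL42A (YNL162W) read 1.13, 0.05, 1.11 and 0.57, a mean of 0.72 ± 0.52 (SD, n = 4, with a limma adjusted p of 0.0300), and RPL42B (YHR141C) read 1.14, 0.08, 1.12 and 0.91, a mean of 0.81 ± 0.50 (SD, n = 4, with a limma adjusted p of 0.0176). On arrays 1 to 3 the RPL42 copies differed by at most 0.04, and on array 4 RPL42B was 0.34 higher.

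On the side of the subunit that binds the translation factors and in the central protuberance (RPL9, RPL11 and RPL12), 2 of 6 copies were called higher (19.8% of all probes were) and the median log2 ratio was 0.45. All 6 copies were below 0 on array 2. Rpl12 sits at the base of the stalk that recruits elongation factors, and yeast can live without it. RPL12A (YEL054C) stood at 1.13, -0.08, 1.21 and 1.14, a mean of 0.85 ± 0.62 (SD, n = 4, with a limma adjusted p of 0.0259). RPL12B (YDR418W) stood at 0.34, -0.03, 0.56 and 0.63, a mean of 0.38 ± 0.30 that did not pass (SD, n = 4, with a limma adjusted p of 0.0905). The A copy was thus the higher on arrays 1, 3 and 4, and both were near 0 on array 2. Rpl11, which contacts 5S rRNA, was called higher for RPL11B (YGR085C), with a mean of 0.59 ± 0.45, while RPL11A (YPR102C) had 0.52 ± 0.43 and an adjusted p of 0.0610 in limma's test. Neither copy of RPL9 passed, with means of 0.18 ± 0.47 for RPL9A (YGL147C) and 0.20 ± 0.36 for RPL9B (YNL067W).

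The proteins that line or ring the tunnel through which the new polypeptide leaves (RPL4, RPL19, RPL26, RPL31 and RPL35) had 2 of 10 copies called higher, a share like the 19.8% of all probes, and a median log2 ratio of 0.30. The called copies were those of RPL19, with 0.70 ± 0.45 for RPL19A (YBR084C-A) and 0.50 ± 0.30 for RPL19B (YBL027W). Rpl4 reaches into the tunnel wall. RPL4A (YBR031W) gave 0.57, -0.46, -0.19 and 0.20 on arrays 1 to 4, a mean of 0.03 ± 0.45 with values on either side of 0 (SD, n = 4, with a limma adjusted p of 0.908). Rpl35 lies beside the tunnel exit, where the signal recognition particle docks. RPL35A (YDL191W) read 0.75, -0.17, -0.43 and 0.19, a mean of 0.08 ± 0.51, and RPL35B (YDL136W) read 0.11, -0.33, 0.60 and -0.22, a mean of 0.04 ± 0.42. The copies of RPL35 went opposite ways on array 3, where only RPL41B read lower than RPL35A, and neither had an adjusted p under 0.762 in limma's test.

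At the face that meets the small subunit (RPL23, RPL24 and RPL41), 1 of 6 copies was called higher and 1 lower (19.8% and 20.7% of all probes), and the median log2 ratio was 0.22. RPL23B (YER117W), for the protein that binds the anti-association factor eIF6, had a mean of 0.61 ± 0.50 with an adjusted p of 0.0482 in limma's test. Rpl24 forms a bridge to the small subunit and is dispensable for growth. RPL24A (YGL031C) gave 0.74, -0.50, 0.65 and 0.56, a mean of 0.36 ± 0.58, and RPL24B (YGR148C) gave 0.36, -0.76, 0.15 and 0.06, a mean of -0.05 ± 0.49. Neither passed, with limma adjusted p of 0.228 and 0.856, and RPL24A was above RPL24B on every array.

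RPL41 encodes a very short, basic peptide that bridges the subunits and is also dispensable. RPL41B (YDL133C-A) gave -1.32, -0.74, -0.52 and -0.14 on arrays 1 to 4, below 0 on all of them, and was called lower with a mean of -0.68 ± 0.49 (SD, n = 4, with a limma adjusted p of 0.0321). Its array 4 value lay close to 0, and the call was lost without array 1 (limma adjusted p = 0.122) and without array 3 (limma adjusted p = 0.0744). RPL41A (YDL184C) gave 0.07, -0.08, 0.40 and -0.11, a mean of 0.07 ± 0.23 (SD, n = 4, with a limma adjusted p of 0.705). RPL41B lies 7 genes and RPL35B 4 genes from RPO21 on chromosome IV. SCM3, next to RPO21, had a mean of -4.02, whereas the genes between SCM3 and RPL41B, other than RPL35B, ran from -0.65 for RDI1 to 0.60 for ARF2.

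The remaining 17 pairs held 16 called higher and 1 called lower among 33 measured copies (19.8% and 20.7% of all probes were). Their median log2 ratio was 0.57. RPL43B (YJR094W-A), which encodes a zinc-binding protein, had the highest mean of all members. It gave 1.75, 0.34, 2.17 and 1.57 on arrays 1 to 4, a mean of 1.46 ± 0.79 (SD, n = 4, with a limma adjusted p of 0.00728), with array 2 the low one. RPL43A (YPR043W), its partner, was read only on arrays 1 and 2, at -1.11 and -0.87, and was called lower from those values alone (mean -0.99, limma adjusted p = 0.0175). Rpl37 also binds zinc. RPL37A (YLR185W) gave 1.75, 0.28, 1.56 and 1.72, a mean of 1.33 ± 0.70 (SD, n = 4, with a limma adjusted p of 0.00738), and RPL37B (YDR500C) gave 1.25, 0.36, 1.32 and 1.13, a mean of 1.02 ± 0.44 (SD, n = 4, with a limma adjusted p of 0.00605). Both copies were above 0 on every array, and on array 2 they lay above the median member of -0.12.

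Further pairs with both copies called were RPL33, with means of 0.92 for RPL33A (YPL143W) and 0.77 for RPL33B (YOR234C), and RPL34, with 0.55 for RPL34A (YER056C-A) and 0.51 for RPL34B (YIL052C). Both RPL34 copies lay above 0 on all 4 arrays and had some of the smallest spreads of the set, with SDs of 0.27 and 0.26. RPL15A (YLR029C), for a protein bound early to the precursor of 25S rRNA, was as steady, at 0.31, 0.31, 0.74 and 0.45, a mean of 0.45 ± 0.20 (SD, n = 4, with a limma adjusted p of 0.0360). Among the members called higher it had the lowest mean, and its array 2 value was as high as that of array 1. Rpl2 lies close to the peptidyl transferase centre, and its copies RPL2A (YFR031C-A) and RPL2B (YIL018W) had means of 0.49 ± 0.61 and 0.51 ± 0.55 that did not pass.

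**Figure D2:**
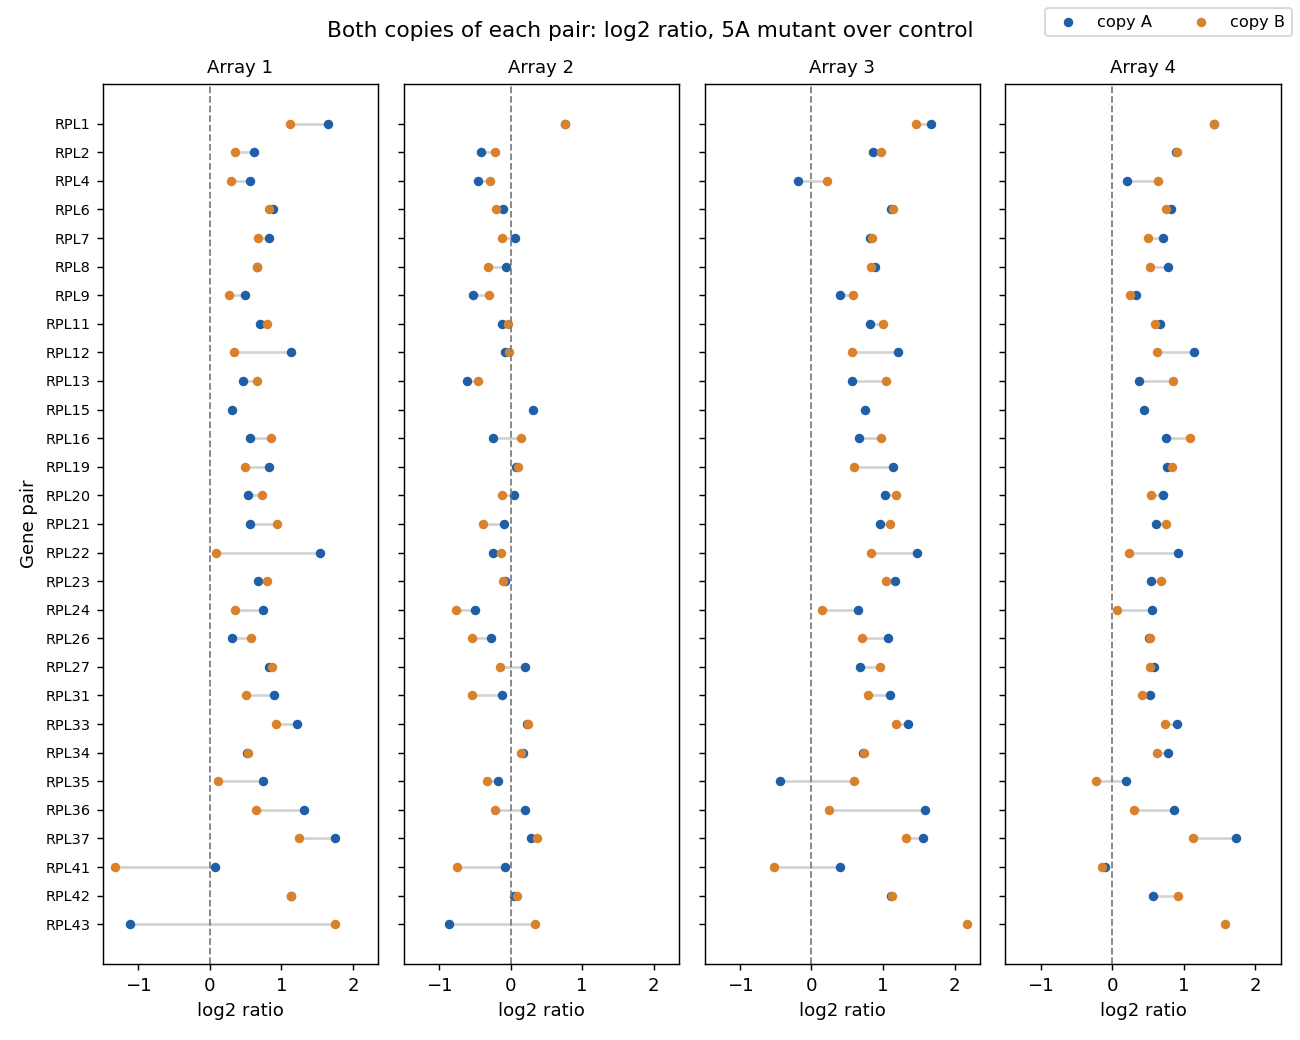
Log2 ratio (x axis) of copy A (blue) and copy B (orange) of 28 pairs, and of copy A alone for RPL15 (y axis), on the 4 arrays, with copies joined by a grey line where both were read. The dashed line marks 0. Most pairs lie close together and move left together on array 2, whereas RPL41 on array 1 and RPL43 on arrays 1 and 2 are spread across 0.

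Copies of a pair were compared by subtracting the log2 ratio of B from that of A within each array, which removes what an array adds to both. The median size of the mean difference was 0.147 over the 28 pairs on all arrays, and the median over the 1625 combinations of members from different pairs was 0.307. Differences were also steadier than the ratios themselves. The SD over arrays of the difference had a median of 0.198, against 0.491 for a single member, and in 23 of 28 pairs it was smaller than the SD of either copy. For members of different pairs the same SD had a median of 0.277. Combinations share genes and arrays, so these figures are descriptions. The oligonucleotides' sequences were not used here, and whether a probe also reads the near-identical partner was not tested.

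Mean ratios of the A and B copies correlated at Pearson's r = 0.664 (Spearman's rho 0.502) over the 28 pairs, which share the arrays and possibly probe sequence. Without RPL1 the value was 0.586, and without RPL1 and RPL41 it was 0.525. On single arrays it was 0.485, 0.726, 0.461 and 0.660 on arrays 1 to 4, so array 2 held the closest agreement between copies although its ratios were lowest. Both means were above 0 in 26 of 29 pairs, and they had opposite signs in RPL24, RPL41 and RPL43. In 7 pairs both copies were called (in RPL43 in opposite directions), in 8 only A, in 4 only B and in 10 neither. Of all measured A copies 50% were called higher, and of B copies 34.5%, against 19.8% of all probes. How often both would be called from those shares alone was not tested.

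**Figure D3:**
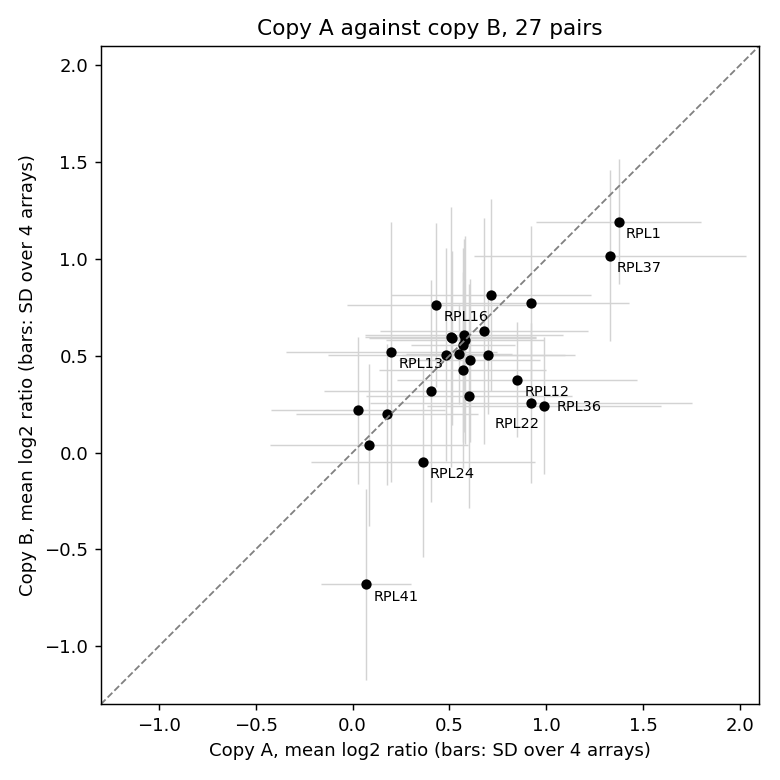
Mean log2 ratio of copy B (y axis) against copy A (x axis), 1 point per pair, for 27 of the pairs on all 4 arrays, with SDs over arrays as error bars. The diagonal marks equal ratios. Most points lie near the diagonal, RPL1 and RPL37 at its upper end, and RPL41, RPL36, RPL22 and RPL12 below it.

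No member pair was called different between its copies. Limma's test of A minus B over all 58 A/B-named pairs with enough values called 1 pair (1.72%), the small subunit pair RPS7, and 0 of the 29 member pairs. At an unadjusted p under 0.05 in the same test there were 9 of the 29, and 16 of all 58 pairs, a similar share. When the differences were fitted and adjusted together with all probes, 4 member pairs were called, RPL24, RPL36, RPL41 and RPL43, with adjusted p from 0.0159 to 0.0364, against 12.1% of the 58 pairs. Without array 2, 5 pairs were called, RPL12, RPL22, RPL24, RPL36 and RPL37, against 17.9% of pairs. Without array 1 the calls were RPL36 and RPL41, and without array 3 or array 4 there were 0.

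The widest gap was that of RPL43, where A minus B was -2.86 on array 1 and -1.21 on array 2, the only arrays that read both. The mean of A minus B was -2.03 with a 95% interval of -3.18 to -0.89 (limma adjusted p = 0.0634), or B over A by 4.10-fold. No other pair came near this mean gap. On single arrays, the gaps of RPL22 (1.45) and RPL41 (1.39) on array 1 and of RPL36 (1.34) on array 3 were larger in size than that of RPL43 on array 2.

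Among pairs on all arrays, RPL41 and RPL36 differed most. A minus B of RPL41 was 1.39, 0.66, 0.92 and 0.04 on arrays 1 to 4, a mean of 0.75 ± 0.57 (SD, n = 4, with a limma adjusted p of 0.0661), so the copies read alike on array 4. For RPL36 the values were 0.67, 0.42, 1.34 and 0.55, a mean of 0.75 ± 0.41 (SD, n = 4, with a limma adjusted p of 0.0631). RPL36A (YMR194W) was called higher, with a mean of 0.99 ± 0.61, and RPL36B (YPL249C-A) was not, with 0.24 ± 0.35.

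RPL22 followed, and it is known for cross-talk between its copies, since Rpl22 protein binds the intron of RPL22B and lowers its splicing. RPL22A (YLR061W) gave 1.54, -0.25, 1.47 and 0.92 and was called higher, with a mean of 0.92 ± 0.83 (SD, n = 4, with a limma adjusted p of 0.0435). RPL22B (YFL034C-A) gave 0.09, -0.14, 0.83 and 0.24, a mean of 0.26 ± 0.41 (SD, n = 4, with a limma adjusted p of 0.286). A minus B was 1.45, -0.12, 0.64 and 0.69, a mean of 0.66 with a 95% interval of 0.09 to 1.24 (limma adjusted p = 0.107). The gap was thus largest on array 1 and missing on array 2. RPL12 behaved in the same manner, at 0.79, -0.05, 0.65 and 0.51, a mean of 0.48 ± 0.37 (SD, n = 4, with a limma adjusted p of 0.0877).

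The gaps of RPL24 and RPL16 were smaller but varied little from array to array. RPL24A exceeded RPL24B by 0.39, 0.26, 0.50 and 0.50, a mean of 0.41 ± 0.11 (SD, n = 4, with a limma adjusted p of 0.0631). RPL16 ran the other way, with A minus B at -0.29, -0.40, -0.31 and -0.33, a mean of -0.33 ± 0.05 (SD, n = 4, with a limma adjusted p of 0.0634). Here RPL16B (YNL069C) was called higher with a mean of 0.76 ± 0.42, and RPL16A (YIL133C) at 0.43 ± 0.46 was not. In RPL16 the array-to-array spread of the difference was the smallest of all 28 pairs, although each copy varied by an SD of over 0.4. The difference kept its sign on all 4 arrays in 9 of 28 pairs (32.1% of all pairs did): A was higher in 6, among them RPL8, RPL24, RPL31, RPL36 and RPL41, and B in 3, RPL13, RPL16 and RPL42.

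**Figure D4:**
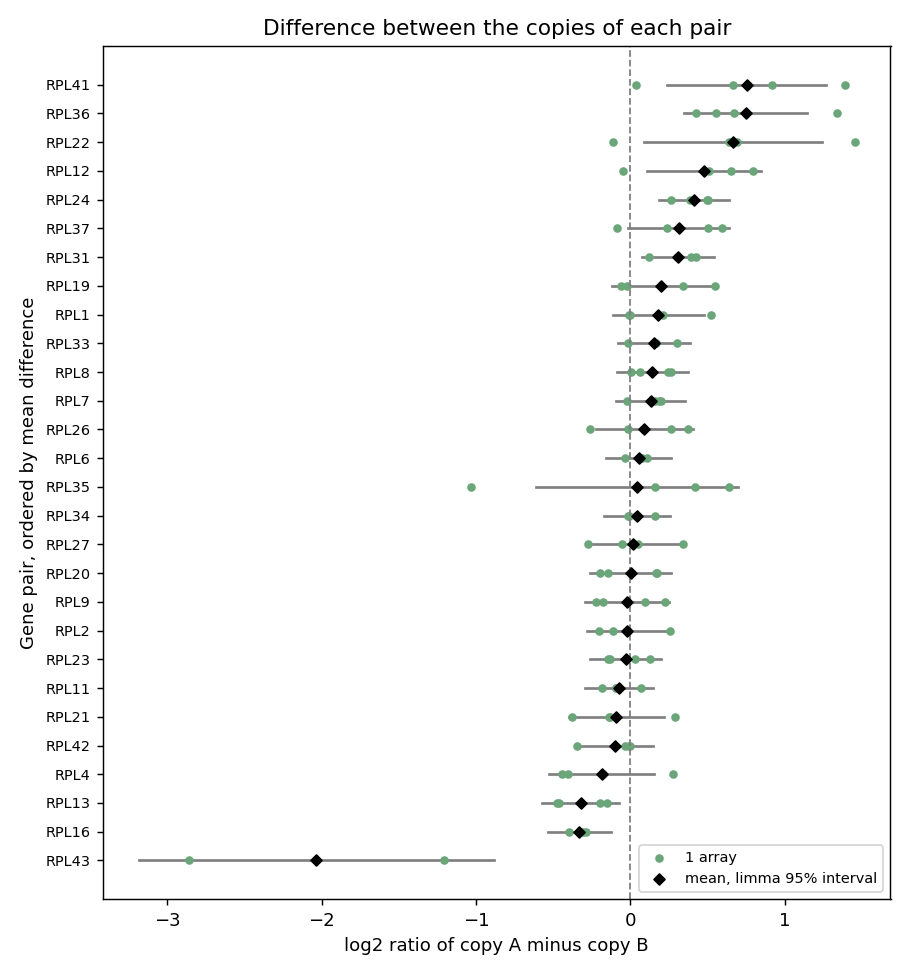
Mean log2 ratio of copy A minus copy B for 28 pairs (black diamonds, x axis) with limma's 95% interval (grey lines) and the value on each array (green points). The dashed line marks no difference. RPL43, with 2 arrays, stands alone at -2.03, RPL41, RPL36 and RPL22 lie at 0.66 to 0.75, and 12 pairs lie within 0.1 of 0.

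In most pairs no difference beyond a modest size could be seen. The mean difference was under 0.1 in 12 of 28 pairs, and in 16 the 95% interval lay within 0.5 of 0 on either side. RPL20 came closest to 0, with A minus B at -0.20, 0.17, -0.14 and 0.17 and a 95% interval of -0.26 to 0.26. RPL27 had a mean of 0.02 with an interval of -0.28 to 0.31, and RPL9 a mean of -0.02 with an interval of -0.29 to 0.25. A call in only one copy did not require a gap: RPL20A (YMR242C) was called and RPL20B (YOR312C) was not, with means of 0.58 in each. RPL35 had a mean difference of 0.04 but the widest spread of the member pairs on 4 arrays. Its values were 0.64, 0.16, -1.03 and 0.42, so its interval reached from -0.61 to 0.70.

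The members are spread over 13 chromosomes, and on all 13 the median of the members was above the median of the chromosome. In 25 of the 29 measured pairs the copies lie on different chromosomes. The 104 adjacent genes not named RPL or RPS had a median log2 ratio of 0.10, and stalk genes were not left out of them. Of the 104, 20 were called higher and 16 lower (19.8% and 20.7% of all probes were). The mean of 47 of 59 members was above that of these neighbours. In 6 cases a neighbour is itself an RPL or RPS gene, as for RPL13A beside RPS16B and RPL13B beside RPS16A.

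Other ribosomal protein genes also lay mostly above 0. Of the 10 single-copy RPL genes 6 were called higher and 0 lower, against 19.8% and 20.7% of all probes, with a median log2 ratio of 0.75. The highest was RPL39, for a small protein of the exit tunnel, at 1.75, 0.36, 1.84 and 1.57 and a mean of 1.38. Of 5 tested genes from the 3 RPL pairs with a copy on chromosome XI all 5 were called higher, with a median of 1.27. Chromosome XI read high as a whole, with 237 of its 317 probes called higher (74.8%) and a median of 0.89, and the partners on other chromosomes ran from 1.10 for RPL40A to 1.54 for RPL17B. Among the 5 genes of the acidic stalk 4 were called higher (19.8% of all probes were), and RPP2A at 0.23 was not. Of 53 RPS genes off chromosome XI 24 were called higher and 0 lower, against 16.8% and 21.7% of all probes off that chromosome, with a median of 0.64.

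Of 7 regulators of this class (RAP1, FHL1, IFH1, SFP1, HMO1, CRF1 and SCH9) IFH1, a coactivator of ribosomal protein genes, was the 1 called (19.8% of all probes were called higher), with a mean of 0.46 ± 0.17 (SD, n = 4, with a limma adjusted p of 0.0292). FHL1, which recruits Ifh1 to the promoters, read -0.25, -0.34, -0.40 and -0.47, a mean of -0.37 that did not pass (limma adjusted p = 0.0503). Without array 2, IFH1 and CRF1 were called higher and FHL1 lower, with limma adjusted p of 0.0385, 0.0110 and 0.0445. In that fit 25.2% of all probes were called higher, and the share called lower is not given here. Of 4 listed chaperone genes 2 were tested, ACL4 for the dedicated chaperone of Rpl4 and SYO1 for that of Rpl5 and Rpl11. They had means of 0.38 and 0.58 and were not called. Without array 2 both were called higher in limma's test, with a median of 0.74 (25.2% of all probes were called higher). The low reading on array 2 extended to single-copy RPL genes, with a median of -0.11 there, and to RPS genes off chromosome XI, with -0.07. The stalk genes had a median of 0.30 on that array and the regulators 0.08, with medians of 0.91 to 1.03 for the stalk genes and 0.08 to 0.29 for the regulators on the other arrays.

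**Figure D5:**
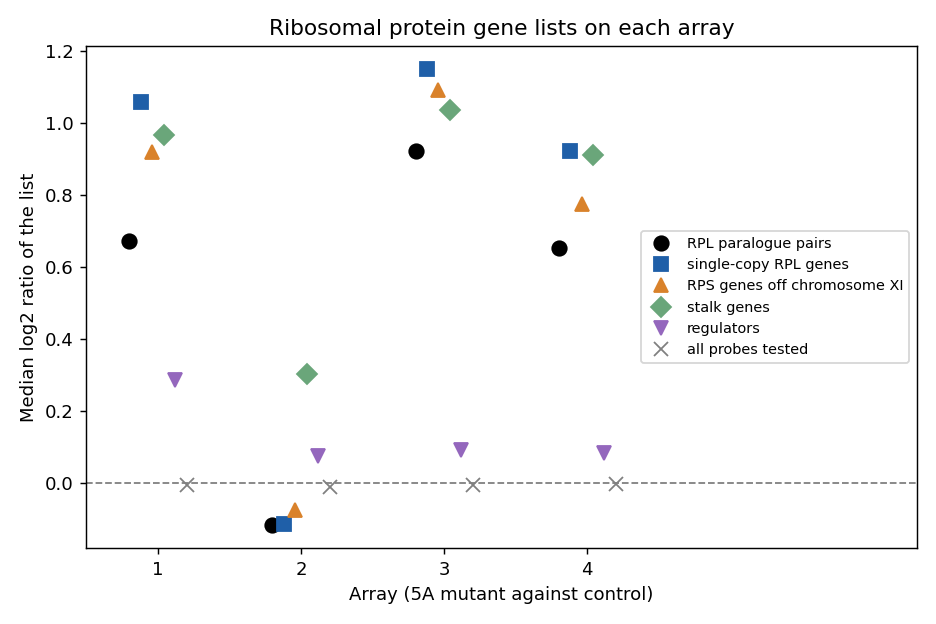
Median log2 ratio (y axis) of 5 gene lists and of all probes tested on arrays 1 to 4 (x axis, points shifted sideways to show overlaps). On array 2 the paired RPL genes, single-copy RPL genes and RPS genes lie just below 0, and on the other arrays they lie between 0.65 and 1.15.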

How the data were processed

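After GenePix scanning the authors normalized the data with the BASE web server, and they deposited a log ratio for each probe on each array, taken here as log2. The normalization method, the background correction and the log base are not given in the sources used here, and spot intensities were not analysed here. Values were used as deposited, with no further normalization. Symbols came from RefSeq's gene table (assembly R64), in which 5724 of 6210 probes matched and which served for names and gene order only.

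Limma 3.58.1 under R 4.3.3 was run with an intercept-only design and eBayes on 6157 probes, those read on 2 or more arrays. P-values were adjusted by Benjamini-Hochberg over all of these, and an adjusted p under 0.05 was called. A minus B was fitted likewise over the 58 A/B-named gene pairs with both copies on at least 2 arrays. Folds are 2 to the power of the mean. Named genes were the pairs with the 6 largest and the 3 smallest differences, the 5 highest and 5 lowest members, members near RPO21, and members with no probe or few arrays. Genes named besides these stand for a role or a list or were picked after their values were seen. The values of 1 member are not reported here singly or plotted, but it is kept in the counts and medians. Role groups were set after the values were known, and the members and lists were chosen with earlier results of these data known.

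On simulated data limma recovered 88% of 200 changed probes among 6157, with 4.86% of calls false, and 80% of 15 changed pairs among 58. Probe changes were planted at 2-fold or more and pair differences at 2-fold, with noise independent between arrays and between probes or pairs. A shift shared by many genes on 1 array, as on array 2, was not simulated. The 4.86% therefore does not describe calls among genes that share such a shift. Member pairs on all 4 arrays differed by less than 2-fold in the mean. The 80% therefore does not describe how often differences of that size would be called. Alternatives were array centring, a common spread, values on all 4 arrays, robust eBayes, array weights, chromosomes centred, the median over arrays, a joint fit with all probes, and each array left out. Python 3.11.15 with numpy 2.4.6, pandas 2.3.3, scipy 1.17.1 and matplotlib 3.10.9 was used for the other steps.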

Additional observations from a re-analysis of the deposited data

Results flagged for a closer look

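In 12 of 94 sets of 4 array values, 1 array stood apart from the other 3 by Dixon's criterion (the gap to the nearest value over the whole range). Chance alone marks about 1 set in 20, or 4.7 here, and genes on 1 array are not independent. Array 2 was the outlying one in 10 of the 12.

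For 9 members array 2 was far below the rest. Its log2 ratio was 0.068 for RPL7A (0.70 to 0.83 on the other arrays), -0.52 for RPL9A (0.34 to 0.49), -0.13 for RPL11A (0.66 to 0.82), -0.076 for RPL12A (1.13 to 1.21) and -0.61 for RPL13A (0.38 to 0.57). It was -0.47 for RPL18B (0.85 to 0.94), -0.50 for RPL24A (0.56 to 0.74), -0.54 for RPL26B (0.53 to 0.70) and 0.28 for RPL37A (1.56 to 1.75). The median of the stalk genes was likewise 0.30 on array 2 and 0.91 to 1.03 elsewhere.

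On other arrays, A minus B of RPL42 was -0.34 on array 4 against -0.04 to -0.0032 on the rest, and the median of the regulators was 0.29 on array 1 against 0.08 to 0.09.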

How the results depend on the processing

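The members called higher numbered 25, and 47 with array weights, in which array 2 weighed 0.360 and array 4 2.07, and 5 to 49 with 1 array left out. Called lower were 2, 1 with values required on all 4 arrays, and 0 to 2 with 1 array left out. The members at 2-fold higher numbered 5, 11 by the median over arrays and 4 to 11 with 1 array left out, and those at 2-fold lower 0, and 1 under a common spread. Pairs whose copies differed numbered 0, with 3 under a common spread, 4 with values on all 4 arrays, 5 with array weights, 2 with chromosomes centred, 4 fitted with all probes, and 0 to 5 with 1 array left out. Shares of all probes called higher, and of all 58 pairs called, are given above for the main fit and for that without array 2. For pairs the share in the joint fit with all probes is given too. The other counts of calls have no such share beside them, so they cannot be read as particular to the members. The cause of the moves in these counts was not tested. Signs turned only for values near 0. RPL24B became 0.10 with array weights and 0.012 with chromosomes centred (-0.18 to 0.19 with 1 array left out). RPL4A became -0.0094 with chromosomes centred (-0.15 to 0.19 with 1 array left out), and with 1 array left out RPL35B ran from -0.15 to 0.16 and RPL41A from -0.038 to 0.13. With array weights A minus B became -0.024 for RPL20, -0.032 for RPL27 and 0.0013 for RPL9, and for RPL9 0.0020 with chromosomes centred. With 1 array left out these differences ran from -0.057 to 0.067 for RPL20, -0.092 to 0.11 for RPL27 and -0.10 to 0.048 for RPL9. For single named genes and pairs, 161 of the alternative values kept direction and call, 24 gained a call, 2 lost one (RPL41B without array 1 or 3) and 17 turned sign. Each array holds both groups as 1 ratio, so the comparison of 5A mutant and control was paired within arrays. There is a single group of arrays. The number of arrays limits the precision, and signal over background was not analysed here.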
